A study of Mus musculus with 2 samples.

Results

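The genes described here encode the protein subunits of the mitochondrial respiratory chain and ATP synthase, read in the midbrain of newborn mice. They are all protein-coding genes whose symbol starts with Ndufa, Ndufb, Ndufc, Ndufs, Ndufv, Sdh, Uqcr, Cox4 to Cox8, Atp5 or mt-, assembly factors of the Ndufaf and Sdhaf kind left out. The rule found 98 members among 21474 protein-coding genes. Of these, 85 are nuclear (36 of complex I, 4 of complex II, 8 of complex III, 20 of complex IV and 17 of complex V) and 13 lie on the mitochondrial chromosome (7 of complex I, 1 of complex III, 3 of complex IV and 2 of complex V). Total RNA was sequenced from 2 midbrains of strain B6NCrl on postnatal day 0, 1 from pup 1 and 1 from pup 3, with 1 library each. No genotype or treatment is given, both pups carry 1 donor identifier, and sex was not collected. There is 1 group and no contrast between conditions. Over 2 animals an exact two-sided sign-flip test cannot give a p below 0.5, so values are given per pup and as mean ± SD (n = 2) with no test.

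Complex I (NADH dehydrogenase), complex III (cytochrome bc1) and complex IV (cytochrome c oxidase) pass electrons from NADH to oxygen and pump protons across the inner mitochondrial membrane. Complex II (succinate dehydrogenase) feeds in electrons from succinate without pumping, and complex V (ATP synthase) uses the proton gradient to make ATP. Most subunits are encoded in the nucleus and imported, while a small set of hydrophobic core subunits is transcribed inside the organelle as long precursors that are cut into separate RNAs. Neurons depend on this pathway for most of their ATP. Complex IV has subunit genes with alternative, tissue-restricted forms, and the c subunit of complex V is encoded by several genes.

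The libraries held 36934859 (pup 1) and 40769045 (pup 3) expected counts, rounded per gene. Levels are TPM: expected counts divided by the effective length of the gene (its length less the ends where no read can start) and scaled to sum to 1000000 over all rows. On the marker lists, all 5 neuronal genes reached 100 TPM in both pups (summed 3879 in pup 1 and 3727 in pup 3), and 6 of 7 midbrain genes reached 1 TPM, En2 being under it. Of 8 markers of heart and skeletal muscle 2 were at 1 TPM or more (Acta1 and Tnnt3; summed 19.6 and 20.7), of 4 pericyte markers all 4 (summed 31.7 and 29.7), and of 3 testis markers none, with Tnp1 at 0 (summed 0.85 and 0.40). Of 2 brown fat markers 1 was at 1 TPM or more, Cidea at 6.46 and 5.69, while Ucp1 was at 0.06 and 0.13 TPM. In whole tissue, fewer cells of a type and less RNA per cell cannot be told apart.

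Respiratory chain subunits were among the abundant transcripts of both midbrains. The 13 mitochondrial genes held 4.66% of TPM in pup 1 and 4.86% in pup 3 (4.76% ± 0.146), and the 85 nuclear members held 4.20% and 4.00% (4.10% ± 0.138). The median nuclear member was at 437 ± 24.0 TPM, beside 4.61 ± 0.127 for all protein-coding genes. In both pups 95 of the 98 members reached 1 TPM, beside 62.1% of all protein-coding genes. A level of 100 TPM was reached in both by 86 of the 98, beside 7.85% of all protein-coding genes, and 1000 TPM by 17 (8 nuclear, 9 mitochondrial). No share of all genes was taken at 1000 TPM. By complex, the nuclear medians were 333 ± 16.4 TPM for complex I, 266 ± 11.2 for complex II, 496 ± 3.66 for complex III, 502 ± 9.02 for complex IV and 715 ± 9.62 for complex V. The order of complexes I and II rests on groups of 36 and 4 genes, and their members' levels overlapped. The complex IV median takes in its tissue-restricted forms, and its 11 widely expressed subunits had a median of 1128 ± 23.2 TPM.

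**Figure D1:**
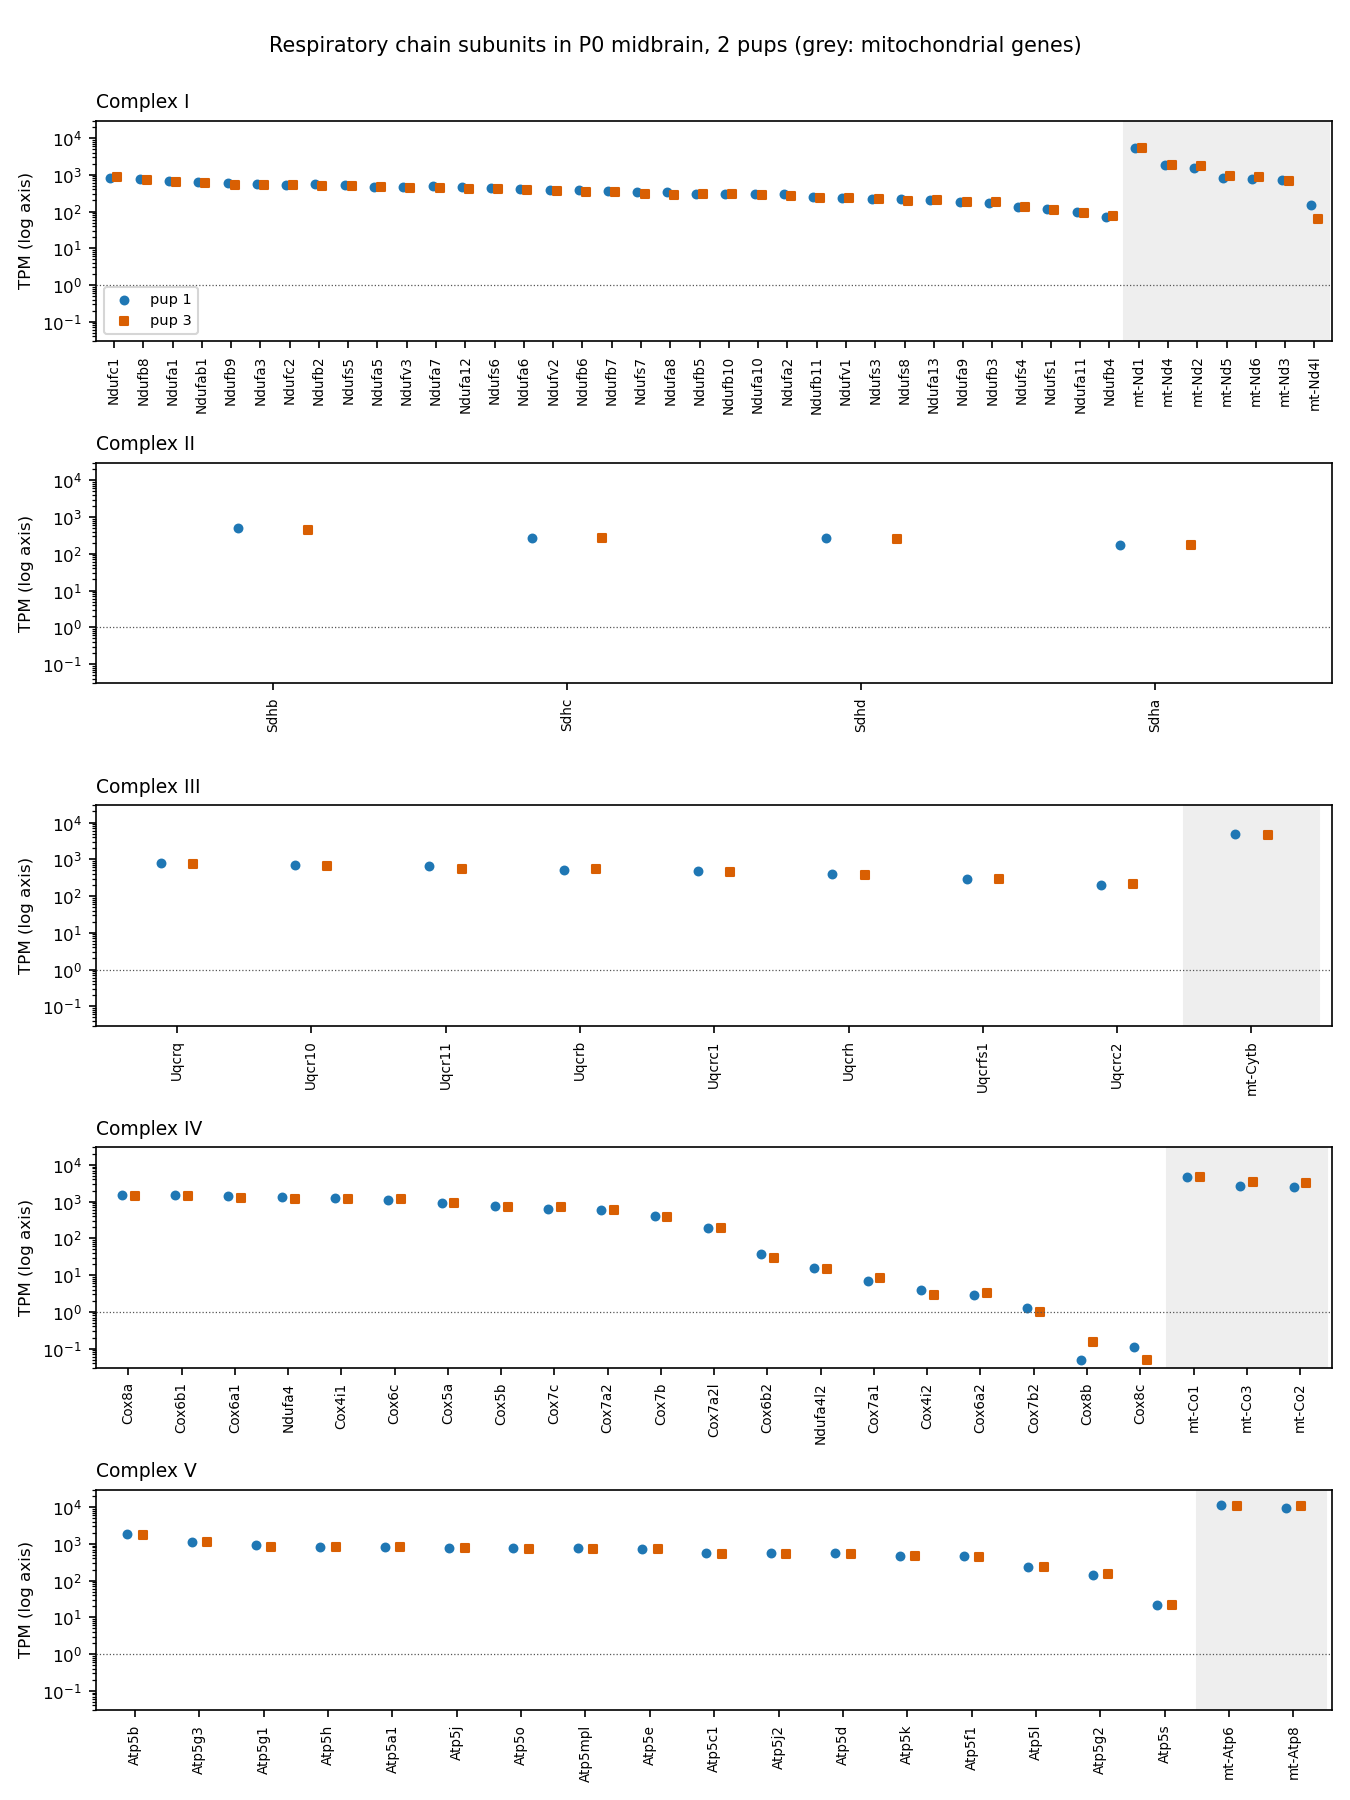
TPM of members in pup 1 (circles) and pup 3 (squares), 1 panel per complex, on a log axis, with mitochondrial genes on grey. Nuclear members are ordered by mean TPM, the dotted line marks 1 TPM, and values of 0 are drawn just above the lower edge; the only nuclear members near or under the line are tissue-restricted forms of complex IV.

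The highest members as deposited were mitochondrial, mt-Atp6 and mt-Atp8, and the level of several mitochondrial genes depends on how reads were divided with copies of the mitochondrial genome on chromosome 1. These copies are pseudogenes, stretches of mitochondrial DNA that entered the nuclear genome, and 7 of the 13 genes have one in the annotation, in a row at chr1:24611535-24616197 on the minus strand (GENCODE M21, mm10). Gm10925 (copy of mt-Atp6), Gm28661 (mt-Co2), Gm28437 (mt-Co3), Gm28439 (part of mt-Nd4) and Gm10222 (mt-Nd4l) are identical to their gene over all 678, 681, 783, 876 and 294 aligned bases. Gm28438 differs from mt-Nd3 at 1 of 345 bases, and Gm29216 from mt-Co1 at 6 of 492. The sequence of mt-Nd4l is shown because it holds the extreme case. It is printed from GENCODE M21 (build mm10, chrM:9877-10173, plus strand) with the 3 bases that are outside the copy Gm10222 in capitals. Every stretch of 100 bases, the read length modelled in the deposited tables, that lies within the other 294 occurs in both genes.

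mt-Nd4l: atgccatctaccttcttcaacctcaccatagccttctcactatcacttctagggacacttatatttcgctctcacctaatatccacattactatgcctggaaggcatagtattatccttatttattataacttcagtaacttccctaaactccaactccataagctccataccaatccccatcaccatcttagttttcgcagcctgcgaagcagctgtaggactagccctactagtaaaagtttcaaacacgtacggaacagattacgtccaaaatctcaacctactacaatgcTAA

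mt-Nd4l, a core membrane subunit of complex I, was deposited at 155 TPM in pup 1 and 61.9 in pup 3, on 709 and 309 expected counts. Its copy was given 3780 and 4515 counts. Summed, gene and copy had 4489 counts in pup 1 and 4824 in pup 3, which at the gene's own length equals 980 and 964 TPM; values obtained in this way are called pooled. The deposited values thus differed by more than 2-fold between the pups, while the pooled values were close to each other. Reads of identical sequence cannot be told apart, and which of the 2 genes they came from was not tested.

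Of the other 6 copied genes, 5 also shared their counts with the copy in both pups. mt-Co3, a catalytic-core subunit of complex IV, was at 2581 and 3494 TPM as deposited (40878 and 60464 counts), while Gm28437 was given 210890 and 199595 counts, so the copy held 80.3% ± 4.96 of their sum. Pooled, mt-Co3 came to 15894 and 15029 TPM (15462 ± 612), the highest level of any member. The deposited credibility interval of mt-Co3, a range that the quantification gives at a level not stated, ran from 1579 to 11764 TPM in pup 1 and from 2438 to 11585 in pup 3. mt-Co2, the subunit that takes electrons from cytochrome c, was at 2423 and 3254 TPM as deposited and at 7092 and 6896 pooled. mt-Nd3 was at 702 and 674 TPM as deposited and at 2694 and 2816 pooled. mt-Co1, which carries the oxygen-reducing centre, was at 4532 and 4599 TPM as deposited and at 6163 and 6250 pooled. mt-Atp6, the proton-channel subunit of complex V, was at 11728 and 10751 TPM as deposited and at 13716 and 14051 pooled. For mt-Nd4 the copy, although identical over 876 bases, was given 6.74 counts in pup 1 and 0 in pup 3, and the gene stayed at 1833 and 1894 TPM.

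The 6 mitochondrial genes without an annotated copy differed by at most 0.21 on the log2 scale between the pups. mt-Cytb, the cytochrome b of complex III, was at 4778 and 4703 TPM (4741 ± 52.6), mt-Nd1 at 5457 and 5233 (5345 ± 159), mt-Nd2 at 1529 and 1689 and mt-Nd5 at 834 and 929. mt-Nd6, the only member on the other strand of the mitochondrial chromosome, was at 760 and 877 TPM; if counting did not use the strand, RNA of the opposite strand would be read as mt-Nd6. The median of the 13 genes was 2423 TPM in pup 1 and 3254 in pup 3 as deposited, and 4778 and 4703 with copies pooled. Their sum over that of the nuclear members was 1.16 ± 0.0747 as deposited and 1.68 ± 0.0668 with the copies of both kinds of member pooled. The copies alone held 2.83% ± 0.0838 of TPM. Beside these, the mitochondrial ribosomal RNAs mt-Rnr1 and mt-Rnr2 were at 2522 ± 171 and 6913 ± 730 TPM.

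**Figure D2:**
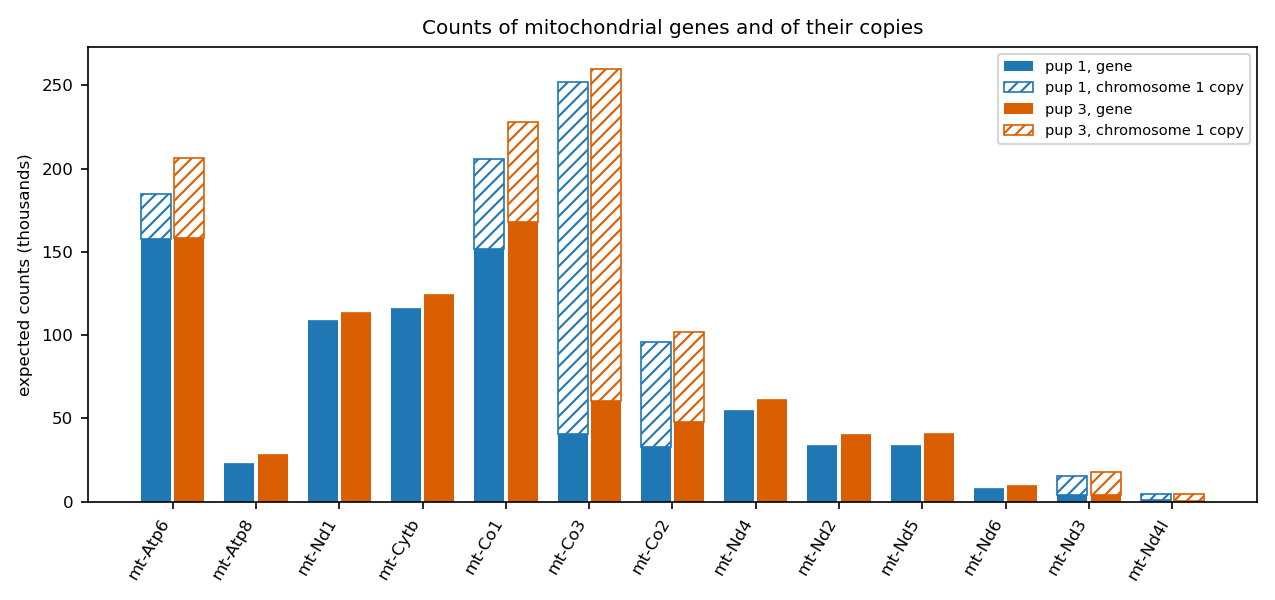
Expected counts, in units of 1000, of the 13 mitochondrial genes (filled) and of their chromosome 1 copies (hatched, stacked on the gene) in pup 1 and pup 3. Most counts of mt-Co3, mt-Co2, mt-Nd3 and mt-Nd4l lie with the copy. For mt-Co3 and mt-Co2 the stacked totals of the pups are closer to each other than the filled parts are.

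mt-Atp8, a small membrane subunit of complex V, and mt-Atp6 are read from 1 RNA and overlap. The shared part, chrM:7927-7969 on the plus strand (43 bases, GENCODE M21, mm10), is shown because it is the end of mt-Atp8 and, from the start codon in capitals, the beginning of mt-Atp6.

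Overlap of mt-Atp8 and mt-Atp6: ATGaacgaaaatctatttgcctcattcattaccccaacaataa

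mt-Atp8 was at 9264 and 10481 TPM. The log2 ratio of mt-Atp6 to mt-Atp8 was 0.34 in pup 1 and 0.04 in pup 3 as deposited (0.19 ± 0.21), and 0.57 and 0.42 with the copy of mt-Atp6 pooled. mt-Atp8 is only 204 nt long, and its effective length is 99 nt shorter. Divided by the annotated length it would be at 5655 TPM.

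The nuclear genes of complex I spanned 834 to 74.6 TPM, and accessory subunits led. Ndufc1 was highest at 820 and 848 TPM (chromosome 3), followed by Ndufb8 at 784 and 725 and Ndufa1 at 698 and 643. All 3 are small accessory subunits of the membrane arm. The 7 core subunits, which carry the flavin and the iron-sulfur clusters or the quinone site of the peripheral arm, lay in the middle and lower part of the range. Ndufv2 was at 376 and 354 TPM, Ndufs7 at 330 and 305 and Ndufv1, which binds NADH and FMN, at 239 and 230. Ndufs3 was at 222 and 215 and Ndufs8 at 221 and 192. Ndufs1, the largest subunit of the complex, was at 114 and 108. The 7 core genes had a median of 218 ± 4.67 TPM, beside 399 ± 1.68 for the 29 accessory members. The lowest members of the complex were the accessory genes Ndufa11 at 98.7 and 92.3 TPM and Ndufb4 at 73.2 and 76.1.

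The order of core and accessory genes differed between scales. Core genes are longer, with a median of 1029 nt beside 630 nt for accessory genes. In expected counts, which are not divided by length, the core median was 6229 ± 31.6 and the accessory median 4949 ± 160, the opposite order. Across the 82 nuclear members at 1 TPM or more, TPM and length on log scales had a Pearson's r of -0.211 and a Spearman's rho of -0.428 in pup 1 (-0.211 and -0.430 in pup 3). For counts and length they were 0.249 and 0.294 in pup 1 and 0.248 and 0.311 in pup 3. These relations are across genes of the same libraries, which are not independent replicates, and genes of the same complex share a library and a size fraction above 200 nt.

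**Figure D3:**
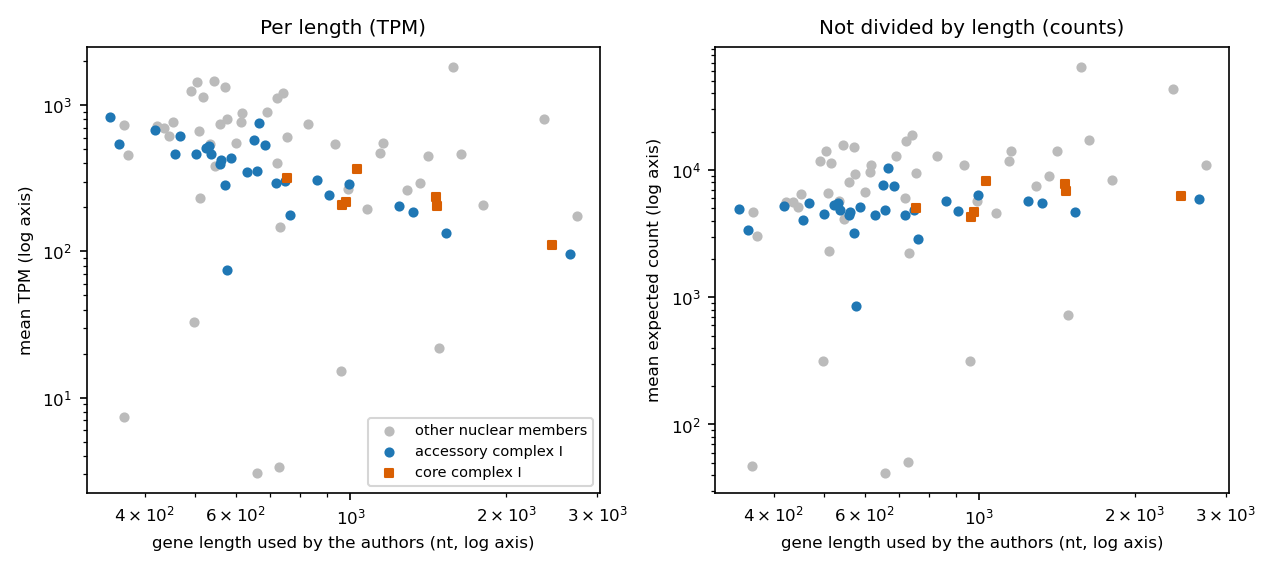
Mean TPM (left) and mean expected count (right) over 2 pups against gene length, log axes, 1 point per nuclear member at 1 TPM or more in both pups. Core complex I genes (squares) sit low and to the right in TPM and within the range of accessory complex I genes (blue circles) in counts.

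Complex II, whose 4 subunits are all nuclear, was led by Sdhb, the iron-sulfur subunit, at 490 and 451 TPM (470 ± 27.8). The membrane anchors Sdhc and Sdhd were close to each other at 275 and 263 and at 273 and 253. Sdha, the flavoprotein that oxidises succinate, was lowest at 172 and 179 TPM. In complex III the small subunits Uqcrq (802 and 730 TPM), Uqcr10 (719 and 671) and Uqcr11 (677 and 543) were highest. Uqcrfs1, the Rieske iron-sulfur protein, was at 297 and 293. Uqcrc1 and Uqcrc2, the core proteins, differed from each other, at 479 and 445 against 205 and 210 TPM. mt-Cytb, the mitochondrial redox subunit of that complex, was more than 10-fold above Uqcrfs1 in each pup.

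Complex IV showed the widest range, from widely expressed subunits above 1000 TPM to tissue forms read on a single count. The 11 widely expressed nuclear subunits had a median of 1128 ± 23.2 TPM. Cox8a, a small membrane subunit (chromosome 19), was highest at 1512 and 1414 TPM, followed by Cox6b1 at 1488 and 1380 and Cox6a1 at 1384 and 1281. Ndufa4, long assigned to complex I and later to complex IV, was at 1309 and 1177, and Cox4i1, a regulatory subunit, at 1260 and 1170. Every one of the tissue forms was lower in both pups. Cox4i2, the lung form, was at 3.86 and 2.84 TPM, 8.48 ± 0.23 below Cox4i1 on the log2 scale (TPM + 0.1). The heart and skeletal muscle forms Cox6a2 (2.78 and 3.33 TPM) and Cox7a1 (6.69 and 8.07) were 8.73 ± 0.26 below Cox6a1 and 6.33 ± 0.19 below Cox7a2. Cox8b, also a muscle form, had 0 counts in pup 1 and 1 in pup 3.

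Of the testis forms, Cox6b2 stood apart from the others. Its 37.5 and 28.7 TPM were 5.44 ± 0.20 below Cox6b1 on the log2 scale. Cox7b2 was at 1.27 and 0.98 TPM, 8.38 ± 0.18 below Cox7b, and Cox8c had 1 count in pup 1 and 0 in pup 3. A count of 0 allows up to 3 counts. Over both pups Cox8a had 31532 counts and was 18594-fold above Cox8b per length, with an exact 95% counting interval from 3337 to 734446, and 26654-fold above Cox8c (4783 to 1.05e+06). Intervals cover counting error only. Cox7b2, Cox8b and Cox8c were the only members under 1 TPM in either pup. In the same libraries no testis marker reached 1 TPM, and of the muscle markers Acta1 was at 16.5 ± 0.396 and Tnnt3 at 2.08 ± 0.573, with the other 6 under 1 on average; the part of these cells in the values was not tested. Ndufa4l2, a homologue of Ndufa4 known as a hypoxia-induced gene, was at 15.3 ± 1.02 TPM, 6.33 ± 0.01 below Ndufa4. Cox7a2l, described as a factor that joins complexes III and IV into supercomplexes, was at 196 and 194, 1.62 ± 0.01 below Cox7a2 at 600 and 601. Whether its product does so in this strain was not tested.

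Complex V had the highest nuclear median when all members of each complex were taken, 715 ± 9.62 TPM. It was below the 1128 ± 23.2 of the 11 widely expressed subunits of complex IV. Atp5b, the catalytic beta subunit of the F1 head (chromosome 10), was at 1852 and 1774 TPM (1813 ± 55.2). With all transcripts of a gene summed it was the most abundant nuclear member. The other F1 subunits were lower: Atp5a1 (alpha) was at 796 and 806, Atp5e (epsilon) at 722 and 708, Atp5c1 (gamma) at 566 and 540 and Atp5d (delta) at 563 and 517. Summed in this way, Atp5b was above Atp5a1, its partner in the hexamer of the head, by more than 2-fold in each pup. The coding transcript of Atp5b held 75.5% and 73.8% of its TPM, and a processed transcript 19.5% and 19.4%. In Atp5a1 the leading coding transcript held 91.7% and 87.8%. The fold and the rank among coding transcripts alone were not computed. Atp5s, factor B, which is associated with the enzyme, was lowest of the group at 22.1 and 21.3 TPM.

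The c-ring, which turns as protons pass, is built of 1 small protein made by 3 genes. Atp5g3 (chromosome 2) was at 1126 and 1109 TPM, Atp5g1 (chromosome 11) at 925 and 836 and Atp5g2 (chromosome 15) at 146 and 147. The last 76 codons of the coding sequence of each leading transcript, stop codon included, are shown because they encode the same residues in all 3 genes while the bases differ. Capitals mark positions at which the 3 genes are not all alike. The sequences are from GENCODE M21 (mm10), where all 3 genes are on the minus strand.

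Atp5g1: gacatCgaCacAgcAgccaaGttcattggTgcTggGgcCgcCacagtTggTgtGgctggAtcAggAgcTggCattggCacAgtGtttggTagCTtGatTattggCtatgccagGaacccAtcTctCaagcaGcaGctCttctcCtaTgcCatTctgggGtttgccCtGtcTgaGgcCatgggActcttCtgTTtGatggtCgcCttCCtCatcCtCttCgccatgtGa

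Atp5g2: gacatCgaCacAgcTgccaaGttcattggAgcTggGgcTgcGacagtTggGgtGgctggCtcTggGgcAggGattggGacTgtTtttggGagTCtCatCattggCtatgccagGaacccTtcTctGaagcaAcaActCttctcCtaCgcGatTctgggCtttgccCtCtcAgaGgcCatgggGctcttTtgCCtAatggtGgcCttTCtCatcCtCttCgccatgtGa

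Atp5g3: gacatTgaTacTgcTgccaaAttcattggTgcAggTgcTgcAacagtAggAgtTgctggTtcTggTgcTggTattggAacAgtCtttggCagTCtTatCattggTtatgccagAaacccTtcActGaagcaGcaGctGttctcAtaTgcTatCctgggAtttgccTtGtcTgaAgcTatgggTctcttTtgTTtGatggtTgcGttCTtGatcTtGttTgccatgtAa

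Over these 228 bases Atp5g1 and Atp5g2 were 85.1% identical, Atp5g1 and Atp5g3 79.8% and Atp5g2 and Atp5g3 78.5%. The longest run of identical bases was 21, well under a read of 100 bases, so no read of the modelled length that lies within them matches 2 of the 3 genes. Before them lie 61, 71 and 66 codons in Atp5g1, Atp5g2 and Atp5g3, which encode the import sequences. Atp5g3 was above Atp5g2 by 2.93 ± 0.02 and Atp5g1 above Atp5g2 by 2.59 ± 0.11 on the log2 scale, while Atp5g3 was above Atp5g1 by only 0.35 ± 0.09. Atp5g1 and Atp5g2 have pseudogene copies (Gm10039, and Gm10175 with Gm10231). With these pooled, Atp5g2 came to 309 and 326 TPM, and the differences became 1.82 ± 0.07, 1.71 ± 0.16 and 0.11 ± 0.09.

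Of 18 pairs of isoforms or neighbours 12 were apart, meaning that both pups had the same sign, the mean log2 ratio exceeded 1 and 3 SD, and in neither pup did the credibility intervals of the table overlap. In all 12 the first gene of the pair was the higher. These were 11 of the 12 nuclear pairs, the exception being Atp5g3 and Atp5g1, and 1 of the 6 mitochondrial pairs, mt-Nd4 and mt-Nd4l. That pair had a log2 ratio of 4.25 ± 0.97 as deposited and of 0.94 ± 0.05 with copies pooled, and was then no longer apart, while the 11 nuclear pairs were apart in either case. Pooling also changed the order within complex IV. The log2 ratio of mt-Co1 to mt-Co3 was 0.60 ± 0.29 as deposited and -1.32 ± 0.07 pooled, that of mt-Co1 to mt-Co2 0.70 ± 0.29 and -0.17 ± 0.04, and that of mt-Co2 to mt-Co3 -0.10 ± 0.01 and -1.14 ± 0.03. mt-Nd5 and mt-Nd6, neighbours on opposite strands, had a log2 ratio of 0.11 ± 0.04. If counting did not use the strand, that ratio would hold RNA of the opposite strand read as mt-Nd6, which was not tested.

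**Figure D4:**
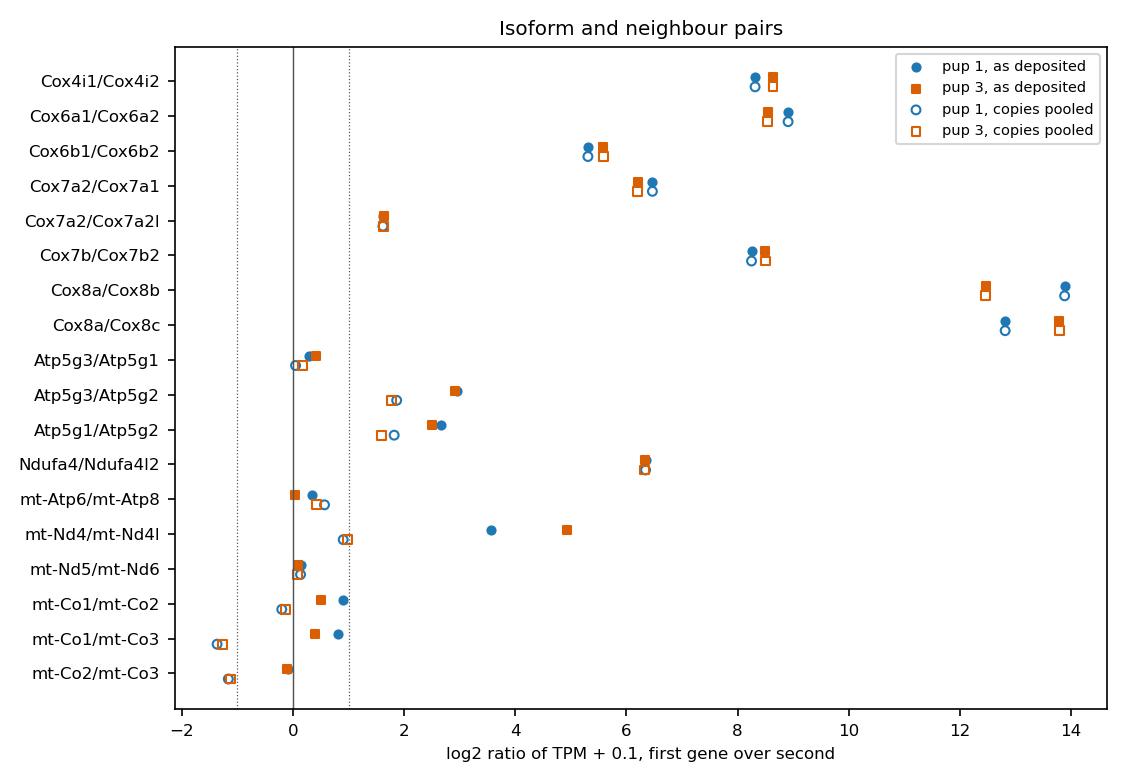
Log2 ratio of TPM + 0.1, first gene over second, for 18 pairs, as deposited (filled) and with copies pooled (open), in pup 1 (circles) and pup 3 (squares). Dotted lines mark -1 and 1; the nuclear pairs other than Atp5g3 with Atp5g1 lie to the right of them, and pooling shifts mainly the mitochondrial pairs and those with Atp5g2.

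Nuclear members were also affected by copies. Counts that are not whole show reads divided among genes. Of the 79 nuclear members with a mean count of at least 100, 29 had such counts (36.7%). Over both genomes it was 37 of 92 (40.2%), beside 27% of all protein-coding genes with as many counts. Over both genomes, 25 members share a stretch of 100 bases with another gene in the same orientation. Of these, 24 had counts that are not whole, the exception being Ndufb8. Of the 11 sharing only in antisense it was 10, and of the 62 sharing none it was 3 (Ndufs6, Uqcr11 and Cox7b). Shared stretches were searched for members only, so no share of all genes stands beside these counts and they describe the members only. For 8 nuclear members an annotated pseudogene has at least 50% of its stretches inside the member. Atp5l, a membrane subunit of complex V, had 2193 and 2435 counts and its copy Gm10221 6740 and 7326. Pooled, Atp5l moved from 230 and 234 TPM to 938 in each pup, from near the bottom to near the top of its complex. Ndufb4 moved from 73.2 and 76.1 to 322 and 333 TPM with Ndufb4c, and so was no longer the lowest of complex I. Cox7c moved from 640 and 697 to 800 and 879, and Ndufab1, the mitochondrial acyl carrier protein, from 621 and 610 to 659 and 670. In Ndufa12 and Ndufs5 the copy held 0.759% and 1.37% of the sum on average. The nuclear median moved little, from 437 ± 24.0 to 444 ± 14.6 TPM.

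Of 57 members with more than 1 transcript in the table all 57 had the same leading transcript in both, and 30 were led at 90% or more of the gene's TPM. In 5 members (Cox6b2, Cox7b, Ndufa10, Ndufab1 and Ndufb5) the leading transcript held under 50%. Shares over all protein-coding genes were not taken for these counts, so they describe the members only. Ndufv3, an accessory subunit of complex I with a short and a long form, was led by the short form at 94.7% ± 0.0778. In 7 of the 98 members (7.14%), beside 6.6% of all protein-coding genes with a mean count of at least 100, the leading transcript is not annotated as coding. For Atp5f1, the b subunit of the stator, it was a transcript subject to nonsense-mediated decay, with a share of 63.8% in each pup. For Atp5j (60.4% and 57.6%), Cox7b (47.5% and 45.4%), Ndufa10 (31.7% and 29.1%) and Ndufb4 (78.0% and 81.2%) it was one that retains an intron, and for Cox5b (58.3% and 57.7%) and Ndufa5 (81.6% and 77.7%) a processed transcript. The level of a gene sums all of its transcripts. For these 7, and for other members with noncoding transcripts such as Atp5b, the TPM of coding transcripts was therefore lower than the gene's.

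The pups differed little in these genes. A mean count of at least 100 was reached by 92 members; Cox7a1, Cox4i2, Cox6a2, Cox7b2, Cox8b and Cox8c did not pass. Past a log2 difference of 1 (pup 3 over pup 1, TPM + 0.1) were 0 members in the direction of pup 3, beside 0.135% of all protein-coding genes, and 1 in the direction of pup 1, beside 0.0713%. The 1 member was mt-Nd4l at -1.32, and with copies pooled it was at -0.02. The next lower in pup 3 were Cox6b2 at -0.39, Uqcr11 at -0.32, Ndufs8 at -0.21 and Ndufa8 at -0.20. The highest in pup 3 were mt-Co3 at 0.44, mt-Co2 at 0.43, mt-Nd6 at 0.21, mt-Atp8 at 0.18 and mt-Nd5 at 0.15. With copies pooled mt-Co3 was at -0.08 and mt-Co2 at -0.04, and all 13 mitochondrial genes lay between -0.08 and 0.21.

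Most nuclear members were slightly lower in pup 3. It was so for 59 of 79 (74.7%), beside 45.3% of all protein-coding genes past the same count filter, with a median of -0.08 beside 0.02 for all. The share was 28 of 36 in complex I, 3 of 4 in complex II, 6 of 8 in complex III, 10 of 14 in complex IV and 12 of 17 in complex V, and all 7 core genes of complex I were lower. With counts scaled by TMM or by DESeq2 size factors it was 71 of 79 (89.9%), where the share of all genes was 53.6% and 53.3%. The median absolute difference of all genes was 0.11 and that of the nuclear members 0.09. With 1 library per pup, the animal and its library cannot be told apart. Other lists moved in the same libraries. Lower in pup 3 were 3 of 4 astrocyte markers (summed 751 TPM in pup 1 and 609 in pup 3), 3 of 3 endothelial (137 and 116), 3 of 4 microglial (112 and 102), 4 of 5 neuronal and 4 of 6 midbrain markers that passed the count filter, 2 of 4 pericyte markers, and 0 of 3 blood markers (1876 and 2016). Of the metabolic lists, 11 of 13 tricarboxylic acid cycle enzymes (median -0.11), 7 of 7 genes of ATP export and uncoupling (median -0.05), 25 of 45 assembly factors (median -0.02), 8 of 14 carriers and subunits outside the rule (median -0.02) and 10 of 21 genes of mitochondrial transcription (median 0.03) were lower in pup 3. The part of these cell types in the shift of the nuclear members was not tested.

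**Figure D5:**
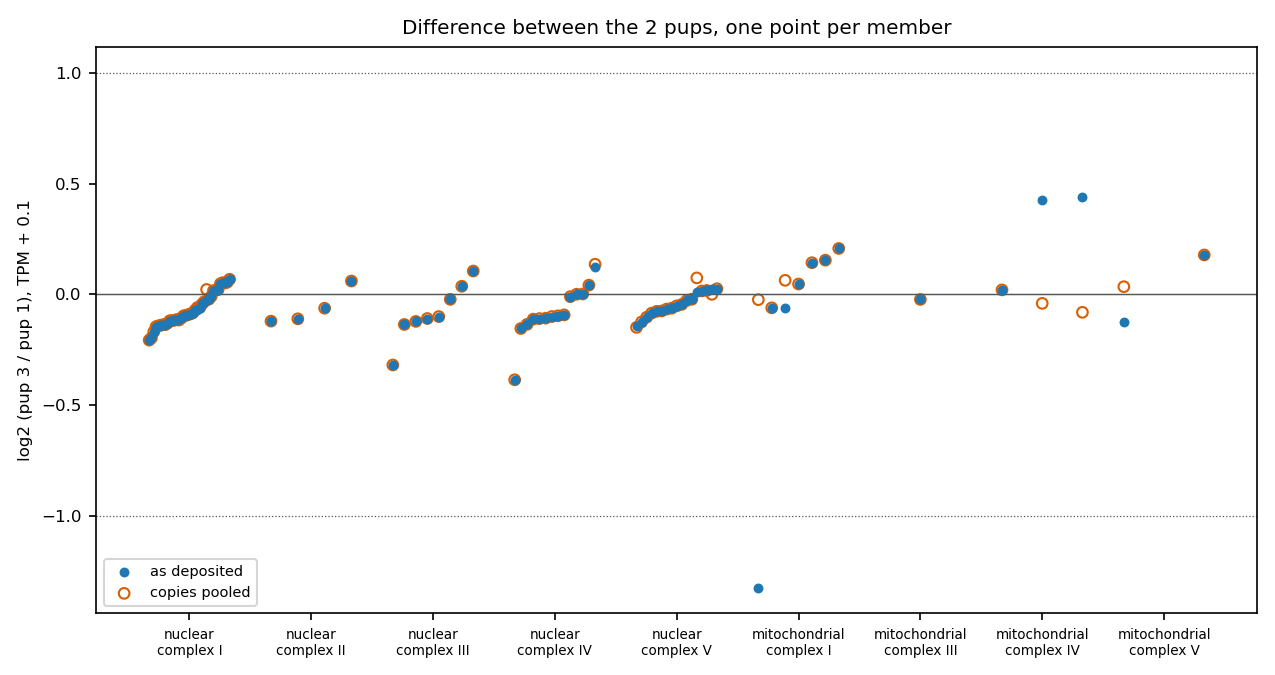
Log2 difference between the pups (pup 3 over pup 1, TPM + 0.1), 1 point per member with a mean count of at least 100, by genome and complex, as deposited (filled) and with copies pooled (open). Dotted lines mark -1 and 1; mt-Nd4l at -1.32 is the only filled point past them, and its open point lies near 0.

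Promoter windows of the nuclear members were searched for the letters of motifs bound by known regulators of respiratory chain genes, NRF1, GABPA and YY1, and for CCAAT. RefSeq windows (GRCm38.p6) of 250 bases before to 50 after a start were matched by symbol for 69 of the 85 nuclear members (81.2%) and searched on both strands. GCGCATGCG, the core of the NRF1 motif, was in a window of 8 of the 69 (11.6%), beside 2.61% of 17492 protein-coding genes. CCGGAAG, the ETS motif that GABPA binds, was in 16 (23.2%), beside 12.9%, and GATGGCGG, the core of the YY1 motif, in 6 (8.70%), beside 2.62%. CCAAT was in 30 (43.5%), beside 42.3%. A match is a description of letters, not of binding. The 250 bases before the start of Atp5l (chr9:44920743-44920992, minus strand) and of Cox6a1 (chr5:115348959-115349208, minus strand) are shown because they were the 2 with 3 of the 4 motifs (NRF1, ETS and CCAAT, in capitals, either strand). In Cox6a1 the NRF1 letters match on both strands and the matches overlap.

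Atp5l: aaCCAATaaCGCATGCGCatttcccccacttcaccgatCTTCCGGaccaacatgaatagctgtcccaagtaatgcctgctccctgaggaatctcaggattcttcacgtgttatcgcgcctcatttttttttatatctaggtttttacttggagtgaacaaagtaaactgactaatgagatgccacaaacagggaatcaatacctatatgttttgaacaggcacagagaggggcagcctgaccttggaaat

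Cox6a1: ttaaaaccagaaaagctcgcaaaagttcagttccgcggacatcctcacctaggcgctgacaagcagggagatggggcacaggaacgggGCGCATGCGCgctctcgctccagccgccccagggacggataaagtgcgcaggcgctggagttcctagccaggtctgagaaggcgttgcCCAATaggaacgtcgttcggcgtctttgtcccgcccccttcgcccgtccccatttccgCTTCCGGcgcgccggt

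On 5 lists of genes that serve the complexes, the medians were all below the 437 TPM of the nuclear members. Of 46 assembly factors 45 reached 1 TPM in both pups and 4 reached 100, with a median of 38.2 ± 0.226 TPM. Uqcc2, a complex III factor, was highest at 408 and 386, followed by the complex IV factors Coa3 (195 and 174) and Cox14 (153 and 141). The lowest, Pet117, was listed at 0 in pup 1 and at 2.79 in pup 3. All 21 genes of mitochondrial transcription and its regulators reached 1 TPM and 1 reached 100, with a median of 16.3 ± 1.03. Slirp, which stabilises mitochondrial messenger RNAs, led at 164 and 154, followed by Ssbp1 at 59.8 and 61.0 and Mterf3 at 40.1 and 37.1, and Mterf1a was lowest at 3.47 and 3.12.

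The 13 enzymes of the tricarboxylic acid cycle had a median of 127 ± 0.368 TPM, with 9 at 100 or more. Mdh2 led at 601 and 556, followed by Cs at 234 and 218, and Suclg2 was lowest at 17.5 and 16.1. Among genes of ATP export and uncoupling 7 of 10 were at 1 TPM or more (median 309 ± 9.61). The adenine nucleotide carrier Slc25a4 was at 998 and 971, the phosphate carrier Slc25a3 at 554 and 543 and the porin Vdac3 at 475 and 446, and Ucp1 and Ucp3 were lowest at 0.06 and 0.13 each. On the list of carriers and of subunits that the symbol rule leaves out, 15 of 16 were matched, with a median of 78.4 ± 3.54. Usmg5, a small ATP synthase subunit, was at 1768 and 1817 TPM and Atpif1, the ATP synthase inhibitor, at 1403 and 1431, at the level of the highest nuclear members. Ndufab1, itself a member, followed at 621 and 610, and the testis cytochrome c gene Cyct was lowest at 0.70 and 0.21. No gene of these 5 lists with a mean count of at least 100 was past a log2 difference of 1 between the pups.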

How the data were processed

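Total RNA above 200 nt (10 ng per library, per the labels) from 2 midbrains was sequenced. The deposited tables give per gene and transcript an expected count, a TPM computed by the authors from these counts and effective lengths, a posterior mean TPM with the bounds of a credibility interval (level not stated, not always holding the TPM), and the percent of the gene's TPM in each transcript. Per the deposited text record the build is mm10 with GENCODE M4. Which program and aligner were used, and whether strand was, is not given in the sources used here. The deposited expected counts that are not whole (tolerance 0.005) show reads divided among genes. In 41286 of 41288 rows of 100 nt or more the effective length was the length less 99 nt.

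Symbols and coordinates were taken from GENCODE M21 for 42462 of 43346 Ensembl rows. The members and lists were chosen with earlier results of these data known. Genes were named by rule: all mitochondrial members, the 3 highest and 2 lowest of each nuclear complex, core, redox, F1 and c-ring genes, fixed pairs, the 5 largest differences between pups in each direction and members under 1 TPM. A copy is a pseudogene with at least 50% of its 100-base stretches inside a member in the same orientation; pooled TPM is the member's TPM times the ratio of summed to own count. Pooling was chosen after seeing the data. Counts were rounded and used only for TMM factors (edgeR 4.0.16, genes averaging at least 10 counts) and DESeq2 1.42.0 size factors in R 4.3.3. Other steps used Python 3.11.15, pandas 2.3.3, NumPy 2.4.6, SciPy 1.17.1 and matplotlib 3.10.9, and were tested on simulated data. With 1 library per pup, the SD over 2 pups holds animal and technical spread together. Alternatives were another TPM estimate, denominator, length, pseudocount, scaling, filter and threshold, and each pup alone. Values of some genes are not reported here.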

Additional observations from a re-analysis of the deposited data

How the results depend on the processing

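The mitochondrial share of TPM, 4.76%, was 4.91% from posterior means, 7.59% with the TPM of the chromosome 1 copies added, 2.08% in counts with no division by length (CPM) and 4.27% with annotated lengths. The nuclear share, 4.10%, was 1.69% in CPM, 3.84% with annotated lengths and 4.25% with copies pooled. Their ratio, 1.16, was 1.85 with the copies' TPM added and 1.68 with copies pooled. The nuclear median of 437 TPM was 386 with annotated lengths and 391 over members with whole counts. The mitochondrial median of 2838 TPM was 3458 from posterior means, and 4741 both with copies pooled and over members with whole counts, where the median difference between pups was 0.15 in place of 0.05. Past a log2 difference of 1 were 3 members without the count filter, which adds Cox8b and Cox8c on 1 count each, and 0 with copies pooled. No share of all genes was taken without that filter. Pooling was chosen after seeing the data. Of 18 pairs 12 were apart, 11 with copies pooled and 13 in CPM, where mt-Nd5 and mt-Nd6 were added. Signs changed in single pairs and genes. The log2 ratio of mt-Co1 to mt-Co3, 0.60, was -1.32 with copies pooled and -0.36 from posterior means, and that of mt-Co1 to mt-Co2, 0.70, was -0.17 with copies pooled; neither pair was apart. The difference between pups changed sign with copies pooled in mt-Co3 (0.44 to -0.08), mt-Co2 (0.43 to -0.04), mt-Atp6 (-0.13 to 0.03), mt-Nd3 (-0.06 to 0.06) and Ndufab1 (-0.03 to 0.02), and in mt-Co1 (0.021 to -0.0038 with TMM and -0.0025 with DESeq2 size factors).

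With each pup alone the mitochondrial share ran from 4.66% to 4.86%, the nuclear share from 4.00% to 4.20%, their ratio from 1.11 to 1.22, the medians from 420 to 454 and from 2423 to 3254 TPM, and the members at 1 TPM from 95 to 96. A difference between pups has no value with 1 pup left out. No paired analysis was possible because the series has 1 group and no contrast. Members under about 100 counts, among them 6 tissue forms of complex IV, are limited by depth, and members with copies by shared reads.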
